A study of Mus musculus with 8 samples.

Results

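The genes described here carry glucose carbon into the cell, through glycolysis to lactate or, as pyruvate, into the mitochondrion. The list held 34 gene symbols, and 33 of them were found in the deposited count table of 18768 genes (Pgam2 was not analysed here). The members were the table rows with these symbols, and the rule that picks them uses no measured value. The symbols themselves were chosen with earlier results of these data known. Aldoa had 2 rows, and the row of the main gene, ENSMUSG00000030695, was used. The other, ENSMUSG00000114515, held between 0.99 and 2.56 CPM.

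RNA was measured in 4 mouse tumor cell lines. Each line was established in culture, over at least 10 passages, from a fibrosarcoma (a tumor of connective tissue) dissected about 3 months after a subcutaneous injection of 100 ug of the carcinogen methylcholanthrene in peanut oil. MC010 and MC011 came from IRF8 KO mice and are labelled KO, and MC654 and MC659 came from wild-type C57BL/6 mice and are labelled WT. All were grown in the same medium, RPMI 1640 with serum and antibiotics, and had no other stated treatment. Each line comes from 1 tumor and has 2 libraries, so the label comparison sets 4 libraries against 4 but only 2 lines against 2, and the ages of the mice were not given in the sources used here. IRF8 is a transcription factor of interferon and myeloid programs, and the study asked which genes depend on it in tumor cells.

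The 8 libraries held between 74063616 and 116206078 counts, and 3 counts in a library, taken as its floor, correspond to 0.0262 to 0.0408 CPM. CPM stands here for the count scaled to a common library size by edgeR's TMM method. Irf8 itself went against its label. It had 442 and 347 counts in MC010, 32 and 10 in MC011, 1 and 2 in MC654, and 1 and 0 in MC659. Gene counts do not show whether these reads lie in the disrupted part of the gene, so the libraries are called by their labels throughout. The summed level of 9 mesenchymal markers (Vim, Col1a1 and others) lay between 9744 and 10521 CPM in the libraries labelled KO and between 14421 and 16163 CPM in those labelled WT, although 3 of the 9 (Pdgfra, S100a4 and Thy1) were called higher and 1 (Fn1) lower in the libraries labelled KO, with a median log2 fold change of 0.39. Of 9 hematopoietic markers 4 were in the table, with sums of 5.72 to 7.38 and 9.67 to 11.4 CPM, and Ptprc (CD45, carried by all white blood cells) was at 0.18 CPM or less and at 0 in MC011. Sums of 4 epithelial markers, chiefly keratins, ran from 33.3 to 565 CPM in the libraries labelled KO, highest in MC010, and from 114 to 129 CPM in those labelled WT. Endothelial, muscle and neural sums stayed under 5.61 CPM in all libraries. The part of cell makeup in the results below was not tested, and in bulk RNA fewer cells of a type and less RNA per cell cannot be told apart.

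Glycolysis splits glucose in a chain of cytosolic enzymes. Glucose enters through transporters of the GLUT family, hexokinase traps it as a phosphate, and phosphofructokinase makes the step that commits it to the pathway. Pyruvate, the end product, is either reduced to lactate by lactate dehydrogenase and exported by monocarboxylate transporters, or carried into the mitochondrion and oxidised by the pyruvate dehydrogenase complex, which the PDK kinases switch off. Many steps have several isoforms encoded by separate genes, and tumors are known for high glycolysis and lactate export even where oxygen is present.

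Between the labels, 9 of the 33 glycolytic genes were lower in the libraries labelled KO and 1 was higher, with very large differences for Slc16a3 and Pfkp. A gene was called where edgeR's quasi-likelihood test gave an adjusted p under 0.05 (Benjamini-Hochberg method, 15153 genes tested) and its log2 fold change was larger than 0.59 either way. All 33 members passed the filter on low counts. Those called lower were 9 (Slc16a3, Pfkp, Gpi1, Eno3, Ldha, Aldoa, Slc2a1, Hk2 and Dlat), which is 27.3%, beside 8.72% of all genes tested. One member was called higher (Pfkm), which is 3.03%, beside 13.7% of all genes tested. The other 23 did not pass both thresholds. The median log2 fold change of the members was -0.33, against 0.02 over all genes tested. All 4 libraries labelled KO lay below all 4 labelled WT for 17 of the 33 members, beside 20.5% of all genes tested. They lay above them for 2 of the 33, beside 22.1% of all genes tested. Counts of the members took between 1.35% and 1.45% of all counts in the libraries labelled KO and between 1.61% and 1.73% in those labelled WT.

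These p-values treat the libraries of a line as separate samples. With the counts of each line summed, 2 lines against 2, edgeR called 0 of the 15153 genes at an adjusted p under 0.05, although 3361 genes, among them 8 of the 33 members, had an unadjusted p under 0.05. The smallest adjusted p of a member was then 0.0512, for Pfkp. With all libraries of MC654 or of MC659 left out, 5 members were called lower, and with MC011 left out 14 were called lower and 4 higher. For each of the 10 members called, both lines labelled KO differed from both lines labelled WT in the same direction. This comes from the libraries that gave the calls and was not counted over all called genes, so it is no separate test.

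**Figure D1:**
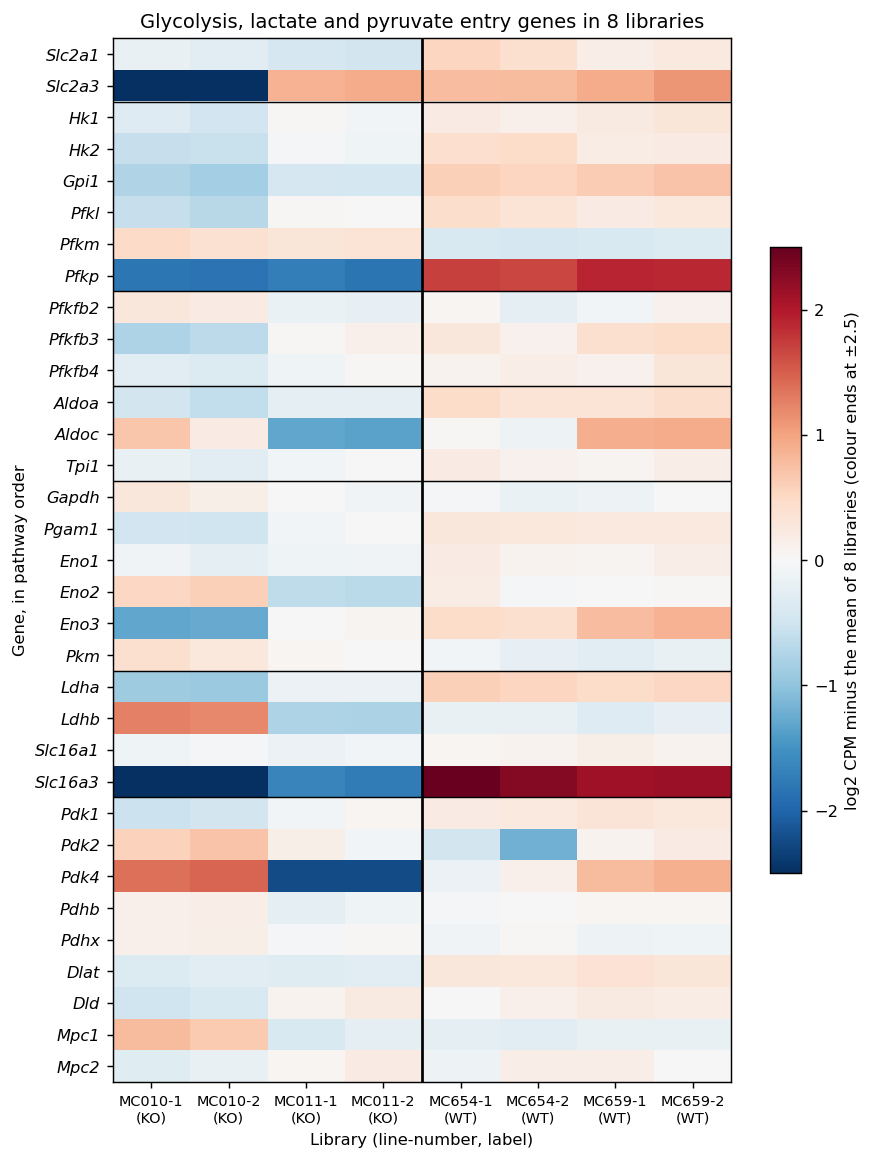
Colour gives the log2 CPM of each of the 33 genes (rows, in pathway order) in each of the 8 libraries (columns) minus the gene's mean over the 8. Pfkp and Slc16a3 are blue in all 4 libraries labelled KO, while Slc2a3, Ldhb, Eno2, Aldoc and Pdk4 split MC010 from MC011.

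Glucose uptake was represented by Slc2a1 (GLUT1, the broadly expressed transporter) and Slc2a3 (GLUT3, a high-affinity transporter). Slc2a1 had 119.6 and 113 CPM in MC010, 102 and 98.0 in MC011, 196 and 179 in MC654, and 151 and 159.8 in MC659. All libraries labelled KO thus lay below all labelled WT, and Slc2a1 fell by 0.67 on the log2 scale (SE 0.10, edgeR adjusted p = 0.00152). Slc2a3 had 1.16 and 0.95 CPM in MC010 but 12.5 and 13.0 in MC011, 11.7 and 11.9 in MC654, and 13.1 and 14.7 in MC659. Only MC010 stood apart for Slc2a3, and the label comparison gave -0.89 (SE 0.82, edgeR adjusted p = 0.431).

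Among Hk1, Hk2 and Gpi1, the genes of the first enzymes of the pathway, Gpi1 differed most between the labels. Hk1, the general hexokinase, lay between 93.5 and 133 CPM in the libraries labelled KO and between 143 and 160.3 in those labelled WT, with a log2 fold change of -0.41 that passed the p threshold (edgeR adjusted p = 0.0197) but not that on size. Hk2, the inducible hexokinase typical of tumors, had 48.5 and 49.1 CPM in MC010, 71.0 and 67.1 in MC011, 97.3 and 99.2 in MC654, and 82.1 and 83.3 in MC659. It was lower in both lines labelled KO, more so in MC010, and fell by 0.62 on the log2 scale (SE 0.15, edgeR adjusted p = 0.0121), but the adjusted p rose to 0.130 with MC654 left out and to 0.0515 with MC659 left out. Gpi1, the isomerase that makes fructose 6-phosphate, had 423 and 393 CPM in MC010, 529 and 520.03 in MC011, 1074 and 1024 in MC654, and 1096 and 1164 in MC659. Its level in the libraries labelled WT was 2.34-fold that in those labelled KO, a log2 fold change of -1.22 (SE 0.11, edgeR adjusted p = 0.000122).

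The 3 phosphofructokinase genes moved in different directions. Pfkp, the platelet-type isoform (chr13:6579768-6648777 of GRCm38, minus strand), had 13.3 and 12.9 CPM in MC010 and 14.0 and 13.0 in MC011. In MC654 it had 152 and 148 CPM, and in MC659 174 and 171. The lines labelled KO were nearly equal and all lay far below the lines labelled WT, with a 12.1-fold difference of means and a log2 fold change of -3.60 (SE 0.08, edgeR adjusted p = 2.71e-07). Pfkm, the muscle-type isoform, was the one member called higher. It had 80.3 and 75.0 CPM in MC010, 70.5 and 72.6 in MC011, 44.2 and 43.2 in MC654, and 44.3 and 45.3 in MC659, which gave a log2 fold change of 0.75 (SE 0.06, edgeR adjusted p = 5.64e-05). The groups did not overlap. Pfkl, the liver-type isoform, had 133 and 122 CPM in MC010, 201 and 199.96 in MC011, 268 and 251 in MC654, and 229 and 237 in MC659. It was thus lowest in MC010 with MC011 in between, and its log2 fold change of -0.58 (SE 0.17, edgeR adjusted p = 0.0301) missed the threshold on size.

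On the scale of counts per kilobase (CPM divided by the length of the principal coding transcript in kb), the shares of Pfkp and Pfkm in the phosphofructokinase total did not overlap between the labels. Pfkp made up 4.91% of the total in MC010 and 3.98% in MC011, but 30.0% in MC654 and 34.8% in MC659 (means of 2 libraries). Pfkm made up 41.9% and 30.4% in the lines labelled KO against 12.6% and 13.0% in those labelled WT. Pfkl was the largest part in every line on this scale, at 53.2% in MC010, 65.7% in MC011, 57.5% in MC654 and 52.2% in MC659, and its shares overlapped between the labels. With exon union length in its place, Pfkm was the largest part in MC010, at 53.6% against 44.1% for Pfkl. The summed level of the 3 genes was 73.1 ± 10.3 CPM per kb (SD, n = 4 libraries labelled KO) against 120.2 ± 2.62 (SD, n = 4 labelled WT). It was 66.8 and 61.9 in MC010 and 81.7 and 82.0 in MC011, so the SD of the libraries labelled KO includes a difference between lines. Shares were described and not tested. Pfkp overlaps Pitrm1 on the other strand, and whether the counting used strand is not given in the sources used here. Pitrm1 averaged 279.6 CPM in the libraries labelled KO and 308 in those labelled WT (log2 fold change -0.14, edgeR adjusted p = 0.123). Pfkm overlaps Senp1 in the same way, which averaged 99.8 and 86.6 CPM (log2 fold change 0.20, edgeR adjusted p = 0.0601).

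**Figure D2:**
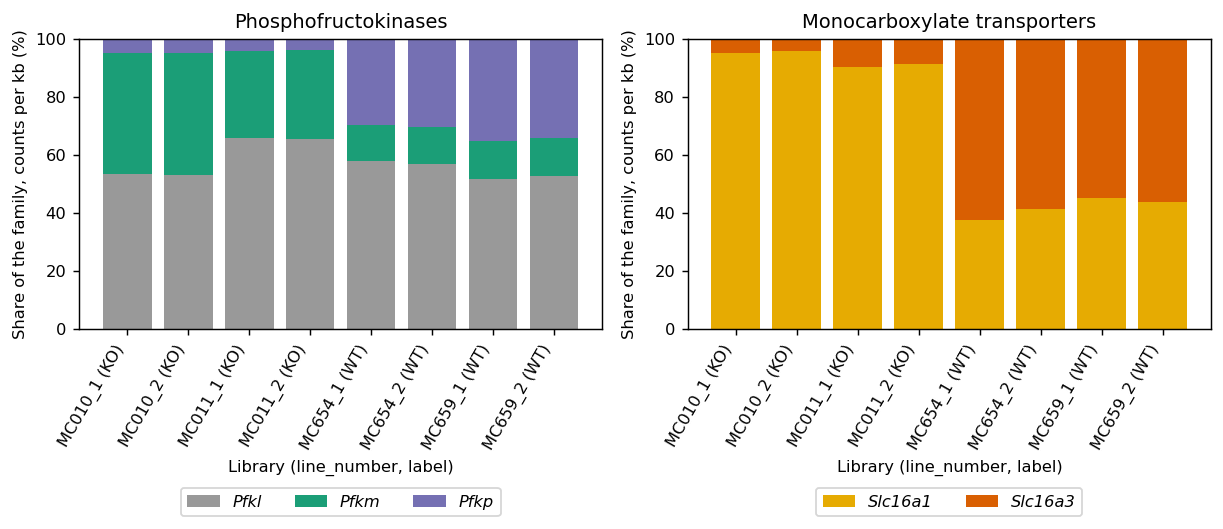
Bars give the share of each isoform (%) in the summed counts per kb of its family in each of the 8 libraries, for the phosphofructokinases (left) and the monocarboxylate transporters (right). Pfkp falls from 29.6% or more in MC654 and MC659 to under 5.03% in the libraries labelled KO, and Slc16a3 from over 54.7% to under 9.87%.

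The PFKFB enzymes make or break fructose 2,6-bisphosphate, the strongest activator of phosphofructokinase. None of the 3 passed both thresholds between the labels. Pfkfb3, the isoform with the highest kinase activity, had 11.5 and 12.6 CPM in MC010, 20.2 and 21.5 in MC011, 24.2 and 21.2 in MC654, and 26.1 and 27.3 in MC659. MC011 overlapped the lines labelled WT, and the label comparison gave -0.59 (SE 0.22, edgeR adjusted p = 0.0659). Pfkfb4 gave -0.33 (edgeR adjusted p = 0.0473) and Pfkfb2 0.07 (edgeR adjusted p = 0.755).

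Aldolase and triose phosphate isomerase produce the 3-carbon sugars. Aldoa, by far the main aldolase gene here (over 99.6% of aldolase counts per kb in each line), had 816 and 732 CPM in MC010, 949 and 949.9 in MC011, 1561 and 1422 in MC654, and 1434 and 1533 in MC659. All libraries labelled KO lay below all labelled WT, with a log2 fold change of -0.79 (SE 0.09, edgeR adjusted p = 0.000501). Aldoc, known as the brain-type aldolase, lay between 1.44 and 6.98 CPM in all libraries and was not called between the labels (-0.67, edgeR adjusted p = 0.342). Tpi1 lay between 638 and 764 CPM in the libraries labelled KO and between 804 and 884 in those labelled WT, and its log2 fold change was -0.27 that passed only the p threshold (edgeR adjusted p = 0.0181).

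In the lower part of glycolysis, from glyceraldehyde phosphate to pyruvate, 1 of the 6 members was called lower and 0 higher. Pgk1, the gene of the step between Gapdh and Pgam1, was not among the members, and Eno1, Eno2 and Eno3 are isoforms of 1 step. Gapdh was the highest member per kb of transcript (2182 CPM per kb over the 8 libraries), ahead of Pkm (1370.05) and Eno1 (1266), and had a label log2 fold change of 0.17 (edgeR adjusted p = 0.163). Pkm, pyruvate kinase, whose M1 and M2 splice forms gene counts do not separate, lay between 3330.1 and 4364 CPM in the libraries labelled KO and between 2715 and 3119 in those labelled WT, and its log2 fold change was 0.38 (edgeR adjusted p = 0.0162) that was under the threshold on size. Pgam1, phosphoglycerate mutase, gave -0.50 (edgeR adjusted p = 0.0126) and Eno1, the general enolase, -0.26 (edgeR adjusted p = 0.0106), both past the p threshold alone. The median log2 fold change of the 6 genes of this part was -0.12, beside -0.62 for the 9 of the upper part, and the difference between these groups was not tested.

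Eno3, the muscle-type enolase, was the one gene of the lower part that was called. It had 32.0 and 32.9 CPM in MC010, 78.3 and 81.9 in MC011, 108 and 103 in MC654, and 135 and 143 in MC659. Both lines labelled KO were lower, MC010 by more than MC011, and the log2 fold change was -1.12 (SE 0.34, edgeR adjusted p = 0.0333). This call stayed under 0.05 in 2 of the 8 fits that left out 1 library, with an adjusted p of up to 0.0838. Eno2, the neuronal enolase, had 19.9 and 20.9 CPM in MC010, 8.96 and 8.70 in MC011, and between 13.5 and 15.8 in the libraries labelled WT. The lines labelled KO thus lay on either side of the lines labelled WT.

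The lactate branch held the largest difference of all members. Slc16a3 (MCT4, the low-affinity transporter that exports lactate from glycolytic cells; chr11:120948480-120960868 of GRCm38, plus strand) had 8.29 and 7.43 CPM in MC010 and 17.7 and 16.5 in MC011. In MC654 it had 309 and 272 CPM, and in MC659 240.3 and 247. The means differed 21.4-fold and the log2 fold change was -4.42 (SE 0.33, edgeR adjusted p = 5.84e-05). Slc16a1 (MCT1, the widely expressed lactate and pyruvate transporter) lay between 165 and 177 CPM in the libraries labelled KO and between 190.3 and 203 in those labelled WT, and its log2 fold change was -0.19 (edgeR adjusted p = 0.0130). Slc16a3 thus made up 4.42% of the counts per kb of these transporters in MC010 and 9.32% in MC011, against 60.5% in MC654 and 55.5% in MC659. Their summed level was 41.8 ± 1.26 CPM per kb (SD, n = 4 libraries labelled KO) against 106 ± 6.18 (SD, n = 4 labelled WT), where each n counts libraries of 2 lines.

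Ldha, the lactate dehydrogenase subunit that favours lactate formation, had 864 and 844 CPM in MC010, 1441 and 1438 in MC011, 2434 and 2319 in MC654, and 2198 and 2287 in MC659. The groups did not overlap, MC010 was again the lowest line, and the log2 fold change was -1.01 (SE 0.20, edgeR adjusted p = 0.00489), with an adjusted p of 0.0620 without MC654 and 0.0531 without MC659. Ldhb, the subunit of oxidative tissues, had 42.2 and 40.5 CPM in MC010 but 10.2 and 10.2 in MC011, 15.5 and 15.5 in MC654, and 14.2 and 15.3 in MC659. It was the highest in MC010 and the lowest in MC011, so that it made up 6.15% of lactate dehydrogenase counts per kb in MC010 and between 0.88% and 0.95% in the other lines. The label comparison for Ldhb gave 0.77 (SE 0.49, edgeR adjusted p = 0.256).

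**Figure D3:**
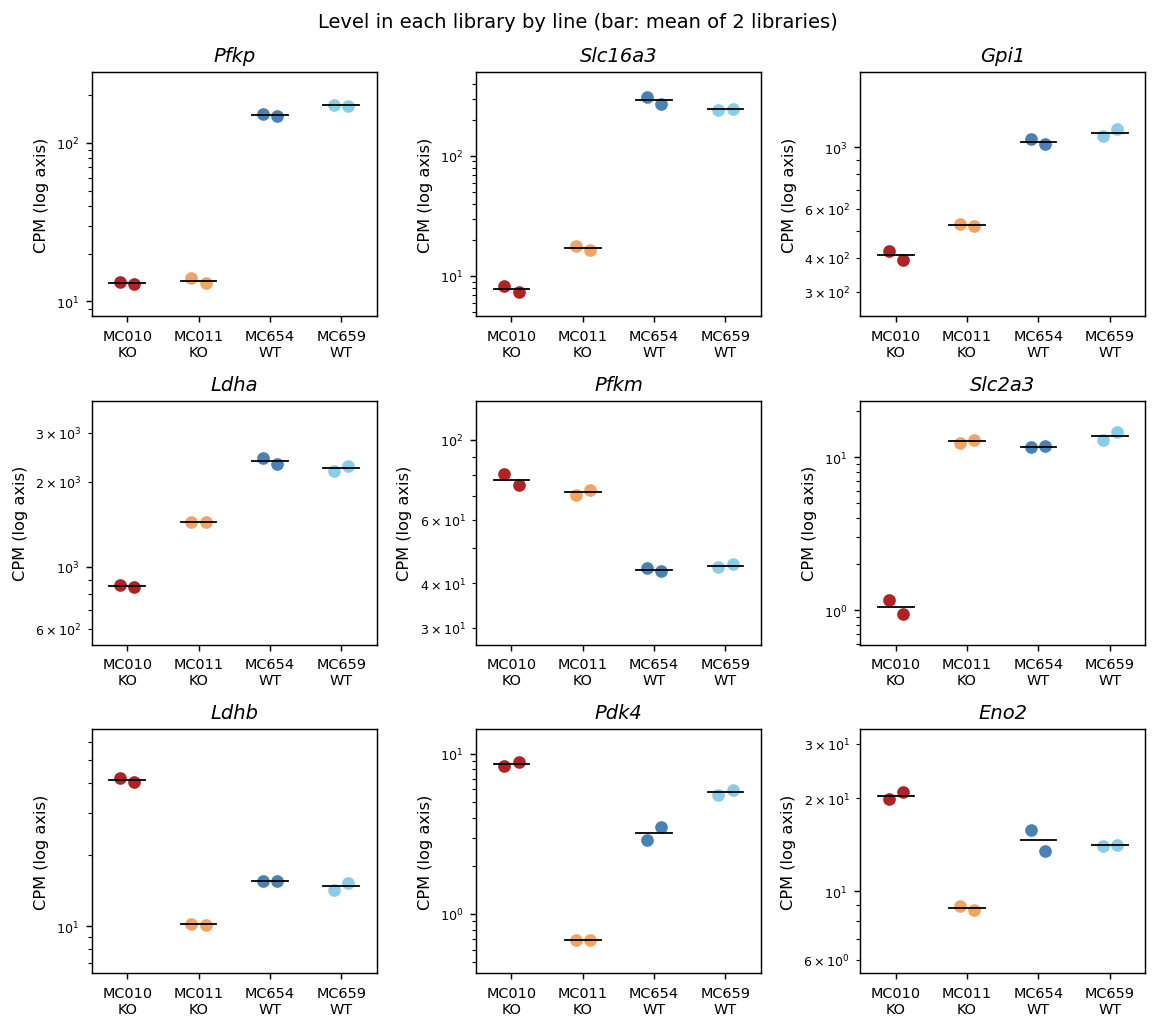
Each panel shows the CPM (log axis) of 1 gene in the 2 libraries of each line as points, with the mean of the line as a bar. Pfkp, Slc16a3, Gpi1 and Ldha are lower and Pfkm is higher in both lines labelled KO, whereas Slc2a3, Ldhb, Pdk4 and Eno2 differ between MC010 and MC011.

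The 250 bases before the RefSeq start (GRCm38.p6) of 4 members called lower are shown because these genes fell together at very different sizes: Pfkp (chr13:6648772-6649021, minus strand), Slc16a3 (chr11:120948817-120949066, plus strand), the more upstream of the Ldha starts (chr7:46845554-46845803, plus strand) and Dlat (chr9:50659781-50660030, minus strand). Capitals mark ACGTG or GCGTG read on either strand (CACGT and CACGC are their other-strand forms), the core letters of the element that hypoxia-inducible factors are known to bind. CACGTG, an E-box, contains ACGTG on both strands and counts as a match on each.
Pfkp: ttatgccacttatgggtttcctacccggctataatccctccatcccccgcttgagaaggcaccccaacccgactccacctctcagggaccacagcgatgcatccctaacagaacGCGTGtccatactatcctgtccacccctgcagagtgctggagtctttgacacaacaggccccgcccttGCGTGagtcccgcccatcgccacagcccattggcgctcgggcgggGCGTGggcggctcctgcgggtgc
Slc16a3: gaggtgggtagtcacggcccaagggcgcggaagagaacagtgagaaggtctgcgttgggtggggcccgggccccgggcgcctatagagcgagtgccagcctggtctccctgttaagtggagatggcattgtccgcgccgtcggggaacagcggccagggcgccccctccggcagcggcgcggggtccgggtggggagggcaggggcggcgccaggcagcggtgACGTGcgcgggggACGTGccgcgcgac
Ldha: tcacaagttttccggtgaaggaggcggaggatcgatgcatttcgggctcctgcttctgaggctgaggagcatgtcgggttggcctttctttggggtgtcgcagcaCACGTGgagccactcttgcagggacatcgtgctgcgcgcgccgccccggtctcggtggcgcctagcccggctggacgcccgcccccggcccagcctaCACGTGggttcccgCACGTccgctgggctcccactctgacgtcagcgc
Dlat: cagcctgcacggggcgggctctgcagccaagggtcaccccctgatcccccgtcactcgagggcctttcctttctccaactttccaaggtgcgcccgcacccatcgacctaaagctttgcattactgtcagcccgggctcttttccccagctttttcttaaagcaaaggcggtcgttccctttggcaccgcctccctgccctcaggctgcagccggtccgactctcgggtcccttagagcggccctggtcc

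The Pfkp window held 3 matches, the Slc16a3 window 2, the Ldha window 5 and the Dlat window 0. Matches were not confined to members called lower. The window of Gpi1, also called lower, held 0. The windows of Pfkm, the member called higher, held 2, 2, 1 and 0, and that of Slc16a1, which was not called, held 4. Of all 32851 promoter windows of the same length, 38.6% held at least 1 match. Members had 50 such windows for 33 genes (Slc2a3 had none, and Pgam2, which has no count here, had 1), and 37 of the 50 windows held a match, in 27 of the genes. Windows of 1 gene can overlap, as for Aldoa, Eno1 and Pfkm, so a match can be counted more than once. The windows shown are rich in G and C, from 62.8% to 73.6%, and the 38.6% was not matched for G and C. A match is a description of letters and no evidence of binding.

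For pyruvate entry, the carrier genes, the dehydrogenase complex and its kinases did not move as a group. Dlat, the acetyltransferase core of the pyruvate dehydrogenase complex, was the only one of these 9 genes called between the labels. It had 85.4 and 88.0 CPM in MC010, 87.7 and 88.3 in MC011, 131 and 129 in MC654, and 137 and 132 in MC659. Both lines labelled KO were at the same level, and the log2 fold change was -0.60 (SE 0.04, edgeR adjusted p = 4.91e-05), just past the threshold on size. The other subunit genes among the members gave -0.01 for Pdhb, 0.15 for Pdhx and -0.25 for Dld, with edgeR adjusted p-values of 0.932, 0.143 and 0.266. The members do not cover the whole complex or all its kinases, as Pdha1 and Pdk3 were not among them. Pdk1, the kinase that hypoxia is known to induce, lay between 77.7 and 117 CPM in the libraries labelled KO and between 130.1 and 141 in those labelled WT, and its log2 fold change was -0.49 (edgeR adjusted p = 0.0201).

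Pdk4, the kinase linked to fasting and fat use, had 8.35 and 8.88 CPM in MC010, 0.68 and 0.68 in MC011, 2.91 and 3.51 in MC654, and 5.56 and 5.98 in MC659. The lines labelled KO were the highest and the lowest of the 4, and the label comparison gave 0.05 (SE 0.85, edgeR adjusted p = 0.970). Pdk2 gave 0.62 (edgeR adjusted p = 0.175). Of the mitochondrial pyruvate carrier genes, Mpc1 had 25.3 and 22.9 CPM in MC010 and between 11.1 and 12.8 in the other 6 libraries, and Mpc2 lay between 9.01 and 12.7 CPM in all 8.

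The lines within a label were compared in a fit with 1 group per line, which tests the spread between libraries of 1 line and not between tumors. MC010 and MC011 differed widely. In MC010, 6 members were called higher than in MC011 (Pdk4, Ldhb, Aldoc, Eno2, Mpc1 and Pdk2), which is 18.2%, beside 15.7% of all genes tested. A further 7 were called lower (Slc2a3, Eno3, Slc16a3, Pfkfb3, Ldha, Pfkl and Dld), which is 21.2%, beside 16.0% of all genes tested. Both shares were near the background. Slc2a3 was 12.1-fold higher in MC011 than in MC010, a log2 difference of -3.57 for MC010 minus MC011 (SE 0.12, edgeR adjusted p = 1.48e-12). Pdk4 was 12.6-fold higher in MC010 (log2 difference 3.65, SE 0.16, edgeR adjusted p = 2.15e-11), and Ldhb 4.05-fold (2.02, SE 0.07, edgeR adjusted p = 1.76e-12). Between MC654 and MC659, 3 members were called lower in MC654 (Aldoc by -0.97, Pdk2 by -0.93 and Pdk4 by -0.85 on the log2 scale), beside 3.71% of all genes tested, and 0 were called higher, beside 1.24%. In that direction 3 members had an adjusted p under 0.05 without reaching the threshold on size.

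Each line labelled KO was also set against both lines labelled WT. These 2 comparisons share the libraries labelled WT, so their values are given side by side. In MC010, 14 members (42.4%) were called lower, beside 17.4% of all genes tested, and 5 higher, beside 19.7%. In MC011, 11 (33.3%) were called lower, beside 13.4%, and 1 higher (Pfkm), beside 17.3%. Pfkp gave -3.62 in MC010 and -3.57 in MC011 (SE 0.05 each). Slc16a3 gave -5.07 (SE 0.07) and -3.95 (SE 0.07), and Gpi1 -1.42 and -1.05 (SE 0.04 each). For Slc2a3 the values were -3.57 in MC010 and -0.00 in MC011, and for Ldhb 1.45 and -0.57. Pdk4, at 1.00 and -2.65, was the 1 member called higher in MC010 and lower in MC011, and 0 members were called the other way round.

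**Figure D4:**
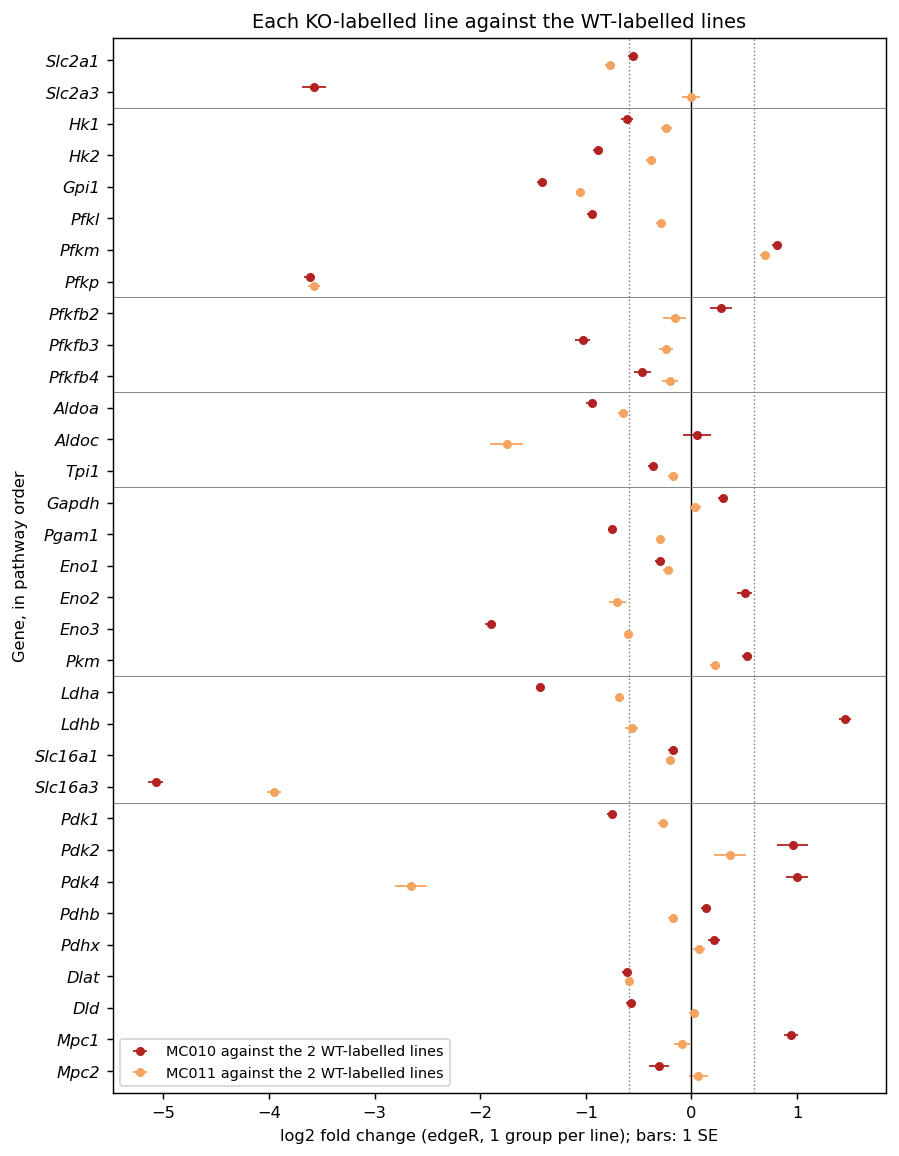
Points give the log2 fold change of MC010 (dark red) and of MC011 (orange) against the mean of the 2 lines labelled WT for each of the 33 genes, in pathway order; bars are 1 SE and dotted lines mark 0.59 in size. Pfkp, Dlat and Pfkm nearly coincide in both lines, and Slc2a3, Aldoc, Ldhb and Pdk4 lie far apart.

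Other genes around the pathway were read from lists, with the counts called between the labels given beside the 13.7% higher and 8.72% lower of all genes tested. Of 40 other genes of glycolysis and pyruvate use 23 were tested, 4 were called higher and 1 lower, with a median log2 fold change of -0.06. The 4 that rose most or fell most were Bpgm (1.71), which makes 2,3-bisphosphoglycerate, Pck2 (-1.42), the mitochondrial enzyme that turns oxaloacetate into phosphoenolpyruvate, Pcx (1.39), pyruvate carboxylase, and Eno4 (1.37), which stayed under 0.87 CPM. Of 9 pentose phosphate genes tested, 1 was called higher (Pgd, 0.85) and 3 lower (Rpe, -0.70, Rpia, -0.65, and H6pd, -0.61), with a median of -0.22. Of 16 citric acid cycle genes 1 was called higher (Suclg2, 1.03) and 0 lower, with a median of -0.10, and by the p threshold alone 2 were higher and 4 lower. Pgd was not called with MC010, MC654 or MC659 left out, and of the other glycolysis genes 5 were called lower without MC010 and 6 without MC011.

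Of 19 tested genes outside glycolysis that low oxygen is known to induce, 7 were called lower and 3 higher, with a median log2 fold change of -0.60. Ddit4, an inhibitor of mTOR signalling, fell by 1.87 (edgeR adjusted p = 0.00126) and Plod2, a collagen-modifying enzyme, by 1.54 (edgeR adjusted p = 0.00289), while Loxl2, a lysyl oxidase, rose by 2.97 (edgeR adjusted p = 0.00239) and Adm, the peptide adrenomedullin, by 2.62 (edgeR adjusted p = 0.000900). The list thus held large changes both ways, and 4 of its genes were called lower with MC659 left out. Of 10 tested regulators of glycolytic genes, 2 were called higher, Epas1 (HIF-2 alpha, 5.06, edgeR adjusted p = 0.000373) and Trp53 (p53, 3.06, edgeR adjusted p = 0.000164), and 1 lower, Arnt (the partner of the HIF alpha subunits, -0.67, edgeR adjusted p = 0.00965). No regulator was called lower with MC654 or MC659 left out, nor without library 1 of MC010. Epas1 was low throughout, at 2.03 to 4.84 CPM in the libraries labelled KO and 0.036 to 0.17 in those labelled WT. Hif1a and Myc were singled out after their values were seen. Hif1a lay between 199.9 and 223 CPM in all 8 libraries (-0.01, edgeR adjusted p = 0.901). Myc had 119 and 111 CPM in MC010, 506 and 482 in MC011, and between 766 and 893 in the libraries labelled WT (-1.46, edgeR adjusted p = 0.0567).

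**Figure D5:**
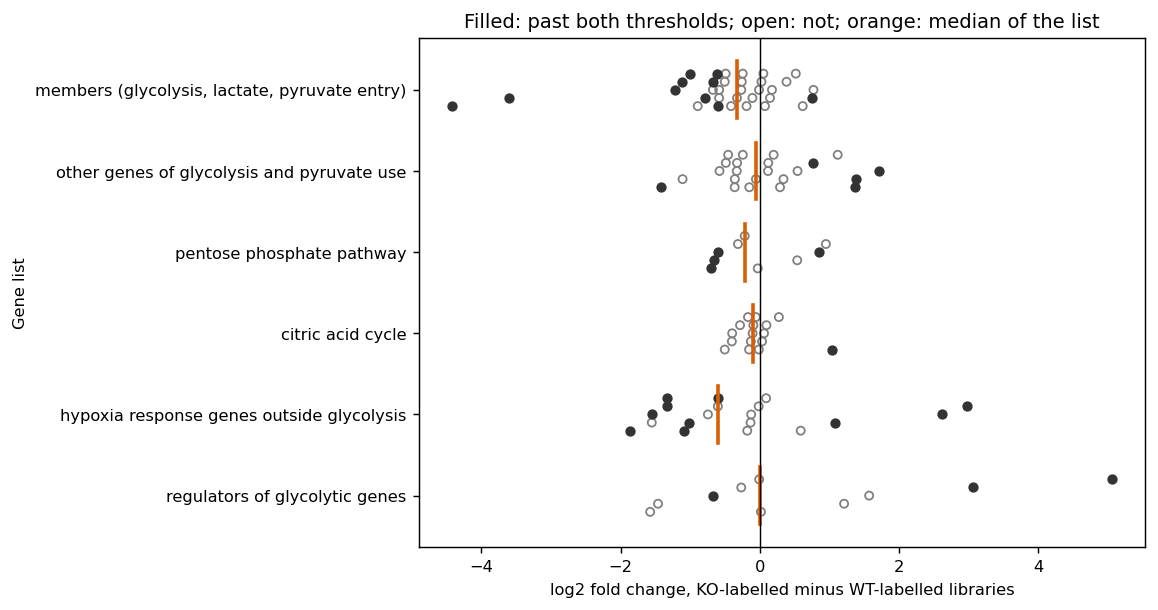
Each point is the log2 fold change of 1 gene, libraries labelled KO minus libraries labelled WT, by list; filled points passed both thresholds and the orange bar is the median of the list. The medians are -0.33 for the 33 members, -0.60 for the hypoxia response genes and -0.06 or nearer to 0 for other glycolysis genes and regulators.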

How the data were processed

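RNA sequencing was performed on 8 libraries of 4 lines. Per the labels, the libraries were stranded mRNA-Seq libraries, and the submitters' processing notes name STAR 2.7.3a, HTSeq 0.11.2, DESeq2 and the builds mm10 and GRCm38.p6 (the methods of the study name other versions). The authors deposited raw counts per gene, a signal (counts divided by a size factor) and their own comparison (log2 fold changes, scores and p-values). Only the deposited counts were used, and 0 per-sample columns were unmatched. Genes with a summed count under 20 were not in the table.

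The test was that of edgeR 4.0.16 (R 4.3.3; filterByExpr by label, TMM, robust quasi-likelihood test). Each SE of a log2 fold change was derived from this test, as the size of the change divided by the square root of the F statistic. Samples were grouped by line and label, and a fit with 1 group per line gave differences between lines. On simulated counts for the label comparison, 185 of 200 changed genes were recovered, with 1 false call among 14975 genes. The simulated libraries held no differences between lines of a label. They thus do not give the rate of false calls in the measured libraries. Libraries of 1 line differed beyond sampling noise (chi-square per degree of freedom 7.51 to 12.8), and whether they came from separate cultures is not given in the sources used here. The p-values of the fit with 1 group per line measure the spread between these libraries. Those of the label comparison measure the spread among the 4 libraries of a label, within and between lines together. Members and lists were chosen with earlier results of these data known. Of the lists, at most 4 genes each are named, called genes with 1 direction in all line pairs, in order of size. Lengths and positions are from GENCODE vM21 (GRCm38), whose principal coding transcript was used, and promoters from RefSeq GRCm38.p6. The bases after the start lay in an annotated transcript of the gene for 41 of 50 promoter windows. Alternatives were upper-quartile scaling, DESeq2 1.42.0, the unfiltered table, a replicate block, limma-voom (limma 3.58.1) with a random line effect, counts summed by line, the omission of a library or a line, calls by p alone, and shares without length or with exon union length. Floors cover counting error only.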

Additional observations from a re-analysis of the deposited data

Results flagged for a closer look

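In the group of 4 libraries labelled KO, the Eno1 level of MC010 library 2, at 2169 CPM, was far below the other 3, which lay between 2374 and 2411 CPM. It was the 1 group flagged among 66 groups of 4 examined. The rule marks about 1 in 20 groups of 4 independent values by chance. Each group here held 2 libraries of each of 2 lines, so that rate does not apply as such.

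The difference between MC010 and MC011, the lines labelled KO, passed both thresholds for 13 members by edgeR's test of the contrast (log2, MC010 minus MC011). It was positive for Pdk4 at 3.65, Ldhb at 2.02, Aldoc at 1.80, Eno2 at 1.20, Mpc1 at 1.03 and Pdk2 at 0.60. It was negative for Slc2a3 at -3.57, Eno3 at -1.30, Slc16a3 at -1.12, Pfkfb3 at -0.79, Ldha at -0.75, Pfkl at -0.65 and Dld at -0.59. For Pdk2 the difference was 0.49 without MC011 library 2 (edgeR adjusted p = 0.0619).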

How the results depend on the processing

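Each line comes from 1 tumor, so the label comparison rests on 2 lines against 2. Other depths were not tested. With sums per line, 0 members were called higher and 0 lower in the libraries labelled KO (against 1 and 9). Leaving out MC011 gave 4 higher and 14 lower, and leaving out MC654 or MC659 gave 5 lower each. With 1 library left out, between 1 and 2 members were called higher, the 2 without MC011 library 1. Without the threshold on the fold change, 2 were higher and 17 lower between the labels, 11 and 16 in MC010 against MC011, 3 and 5 in MC654 against MC659, 11 were higher in MC010 than in the lines labelled WT, and 3 higher and 23 lower in MC011 than in those lines. The label log2 fold change reversed without MC010 for Eno2 (-0.72), Ldhb (-0.59) and Pdk4 (-2.73) and without MC011 for Pdhb (0.13). With exon union length, the label difference in share was -8.59 percentage points for Pfkl (4.58 before), -17.3 for Pfkp (-27.9 before) and -47.3 for Slc16a3 (-51.1 before), an alternative chosen after seeing the data; that length counts every annotated exon, which for Pfkp gives 13401 in place of 4145 bases. The cause of the other changes was not tested. In a fit with the replicate block (library number), 1 member was called higher and 8 lower, and 1917 of all genes were higher and 1189 lower. The deviations of same-numbered libraries correlated between -0.18 and 0.27. Whether same-numbered libraries shared a preparation step is not given in the sources used here and was not tested. With limma-voom and the line as a random block, libraries of a line correlated at 0.83 and 1876 genes were called.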
